A study of Mus musculus with 13 samples.

Results

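Nonclassical monocytes were taken from a matrix of single-cell transcriptomes, labelled as mouse lung, by their UMIs, the molecule counts of 10x Genomics droplet libraries. A cell was counted as one when mitochondrial (mt-) genes held at most 10% of its UMIs, when it carried at least 3 UMIs over Cd300e, Eno3, Treml4, Ace, Adgre4 and Spn with at least 2 of Cd300e, Treml4, Adgre4 and Ace detected, and when it had 0 UMIs over Cdh5, Cd3e, Cd79a and Vcan. Of 37344 barcodes, 33618 passed the mitochondrial limit and 2261 of these met the rule, a share of 6.73% (95% exact binomial interval 6.46 to 7.0%). The members held 19019858 UMIs in all, with a median of 7463 UMIs per cell.

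Nonclassical monocytes are the blood monocytes that stay inside vessels and crawl along the endothelium, where they clear debris and watch over the vessel wall. In mice they have little Ly6C, arise largely from classical Ly6C-high monocytes, and depend on the nuclear receptor NR4A1 for their formation. The integrin LFA-1 holds them to the endothelium, and the fractalkine receptor CX3CR1 and BCL2 family proteins are linked to their survival.

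The study was about eosinophils in elastase-treated and allergic lungs, and monocytes were among the other cells captured. GEO lists 13 lung samples, of which 4 carry the titles of the single-cell experiment. These are Control, Asthma (mice sensitized to and challenged with ovalbumin), PPE-emphysema (repeated tracheal instillation of porcine pancreatic elastase) and PPE-recovery (a single instillation), and the other 9 are 3 Acute injury, 3 Con and 3 emphysema samples. The matrix numbers its barcodes by 7 libraries, and neither the labels nor the file ties a library to a title, so every value below is given by library number and no condition is compared. The study's methods name C57BL/6 mice, and the labels give no strain or age per sample.

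All 7 libraries form 1 matrix without labelled replicates. For that reason no test between groups was possible, and intervals on UMI counts (exact Poisson) and on shares (exact binomial) cover counting error only. The levels below are CPM, that is UMI counts scaled to the same total of UMIs of the cells named (counts per 1000000 UMIs), from a kit that counts 3' ends, so they were not scaled for transcript length.

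Libraries 4, 5 and 6 stood apart from libraries 1, 2, 3 and 7. Globin transcripts held 38.5%, 39.9% and 34.8% of all UMIs in libraries 4, 5 and 6 and under 0.03% in each of the others. The summed level of Sftpc and Scgb1a1, genes of alveolar type 2 and club cells of the lung, was 0.572, 0.215 and 0.194 CPM in those 3 libraries and lay between 8505 and 29174 CPM in the other 4. The labelled tissue, lung, was therefore not visible in libraries 4, 5 and 6 through these epithelial markers, and 587 of the 2261 members came from these 3 libraries. Their smallest barcodes held 3439 to 5735 UMIs, against 304 to 501 in the others, and 306 barcodes, 10 of them among the nonclassical monocytes, had a sequence that occurred in more than 1 library.

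The share of nonclassical monocytes differed widely between libraries. Libraries 1 to 7 held 766, 325, 511, 376, 101, 110 and 72 of them, which made 15.96%, 4.26%, 9.96%, 12.6%, 2.07%, 2.25% and 2.18% of the cells that passed the mitochondrial limit. Libraries 1, 3 and 4 were high and libraries 5, 6 and 7 low, and the intervals of the high and the low libraries did not overlap. Set against classical monocytes, of which 1868 were found by a rule on Ly6c2, Ccr2, F13a1 and Vcan, there were 3.0, 1.29, 2.03, 0.457, 0.678, 1.15 and 1.67 nonclassical cells per classical cell. Nonclassical cells outnumbered classical ones in libraries 1, 2, 3, 6 and 7, while the order turned in libraries 4 and 5. The order depended on the rules in part. With Marco, C1qa, Ncr1, Pf4 and Col1a2 as further excluding genes there were 1648 nonclassical and 2003 classical cells, and libraries 4, 5 and 6 kept 143, 22 and 15 members, or 0.159, 0.136 and 0.139 per classical cell. These genes were applied to nonclassical cells only, and a removed cell that met the classical rule counted as classical. Pf4 or Ppbp had a UMI in 261, 86 and 100 members of libraries 4, 5 and 6. B cells of these libraries carried Pf4 about as often, as given below. With at least 5 UMIs and 3 of 4 genes in the rule, libraries 2 and 6 also fell below 1, at 0.838 and 0.807. With stricter classical monocytes library 5 rose above 1.

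**Figure D1:**
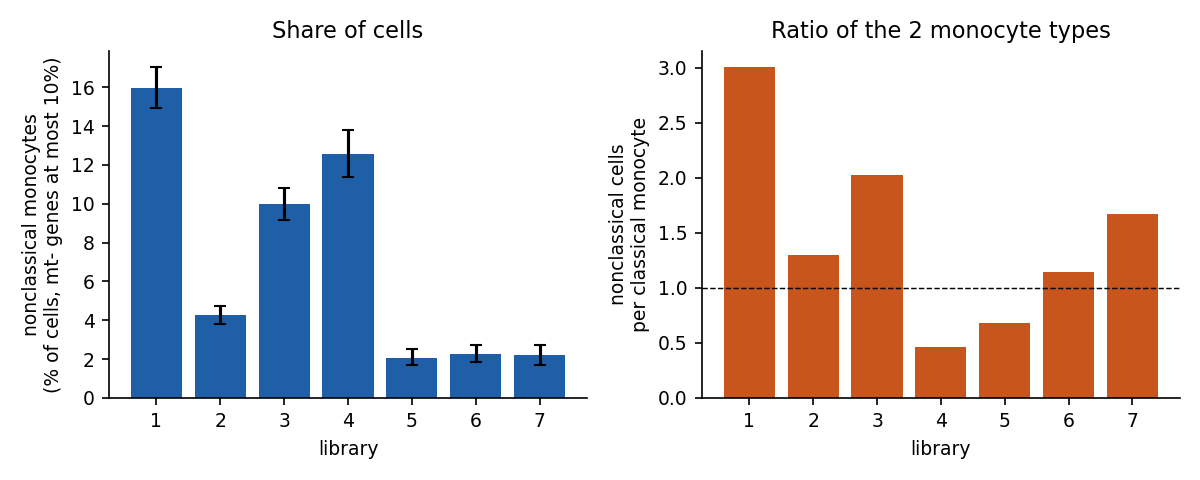
Left, nonclassical monocytes as a percentage of cells with at most 10% mitochondrial UMIs in each of 7 libraries, with 95% exact binomial intervals, from 2.07% in library 5 to 15.96% in library 1. Right, nonclassical cells per classical monocyte, from 0.457 in library 4 to 3.0 in library 1, with the dashed line at 1.

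Among the genes of the rule, Ace, which encodes angiotensin-converting enzyme, was detected in 2077 of the 2261 cells and the adhesion receptor gene Adgre4 in 2068. Treml4, for an innate receptor, was found in 1963 cells, Spn (CD43) in 1925, the enolase gene Eno3 in 1422 and the activating receptor gene Cd300e in 1087. These counts describe the choice of cells and are no result. All 4 of Cd300e, Treml4, Adgre4 and Ace were detected in 899 cells, 3 in 875 and 2 in 487. The 4 excluding genes removed 587 cells that met the rest of the rule, 268 of them with a Vcan UMI and 209 with a Cdh5 UMI.

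Cells near the threshold were poorer in the other genes of the type. The 109 cells just inside it, with 3 UMIs over the 6 genes, carried Fcgr4 at 94.7 CPM and Nr4a1 at 296 CPM, and the 101 cells just outside, with 2 UMIs, carried them at 113 and 253 CPM. In the 2053 cells with over 4 UMIs the same genes stood at 306 and 874 CPM. Ly6c2 followed no single direction, with 159 CPM just outside the threshold, 483 CPM just inside it, 349 CPM at 4 UMIs and 256 CPM in cells with over 4 UMIs.

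Most of the known nonclassical genes that had no part in the rule were higher in the members than in classical monocytes. The ratio of UMI rates over classical monocytes was stratified by library, so that each library served as its own reference, and a gene was counted as higher at 2-fold or more and as lower at 0.5 or less. Of 11109 genes with at least 50 UMIs over both types, 641 (5.77%) were higher and 292 (2.63%) lower. The counts of each gene list below stand against these 2 shares. The balance of the directions depended on the cells compared. With 5 more excluding genes (Marco, C1qa, Ncr1, Pf4 and Col1a2) 403 genes were higher and 609 lower, with no excluding genes 1389 and 191, and in libraries 4, 5 and 6 alone 363 and 374. The excluding genes were changed for the members only, and removed members could enter the classical group. Of 25 nonclassical programme genes 17 were higher and 0 lower, with a median log2 ratio of 1.82 against 0.09 over all genes tested. The other 8 lay between the limits. Ifitm6, also taken as a nonclassical marker, leaned the other way with a log2 ratio of -0.45. It stayed between -0.60 and -0.24 in the alternative settings. These are descriptions of cells chosen by their RNA, with no test. In libraries 1, 2, 3 and 7 alone 16 of the 25 were higher, and in libraries 4, 5 and 6 alone 15.

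Fcgr4 encodes the activating Fc gamma receptor IV, which binds IgG complexes, and lies at chr1:171018920-171029761 (GRCm38, plus strand). In libraries 1 to 7 it stood at 378, 234, 255, 182, 403, 282 and 274 CPM in nonclassical and at 42.4, 41.4, 46.2, 17.6, 18.2, 25.6 and 36.7 CPM in classical monocytes. The values of the 2 types did not overlap, and the level was highest in libraries 1 and 5 and lowest in library 4. The stratified ratio was 8.12 (counting interval 7.44 to 8.86). A UMI of Fcgr4 was found in 71.3% of the nonclassical monocytes and in 3.07% of the 5271 B cells, which should lack it, at median depths of 7463 and 5186 UMIs. After each cell was thinned to 1500 UMIs, with 28 nonclassical monocytes and 17 B cells left out as shallower, the shares were 37.2% and 0.628%.

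Ear2, a member of the eosinophil-associated ribonuclease family (chr14:44102654-44103534), has close paralogs whose reads may be shared with it, so its value is uncertain. It was measured at 910.3, 954, 1088, 531, 901, 937 and 1138 CPM in libraries 1 to 7, against at most 261 CPM in the classical cells of any library. Library 4 was the low one and the other 6 were close together. Its ratio was 8.08 (7.70 to 8.49).

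Itgal, the alpha chain of LFA-1 (chr7:127296260-127335138), followed with 1070.5, 787, 866, 849, 1359, 959 and 932 CPM, against 184 to 329 CPM in classical monocytes. Every library of nonclassical cells lay above every library of classical cells, with library 5 the highest. The ratio was 3.57 (3.46 to 3.69). Gngt2, for a G-protein gamma subunit, behaved in the same manner at 1004 to 1509.7 CPM and a ratio of 3.52 (3.43 to 3.62), and Pou2f2, an octamer-binding factor, had a ratio of 2.62 (2.55 to 2.69).

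Nr4a1 (chr15:101254269-101274795) encodes the nuclear receptor on which these cells depend. It stood at 1011, 710.1, 1125, 329, 601, 585 and 873 CPM in nonclassical and at 493, 403, 579, 92.1, 85.8, 149 and 393 CPM in classical monocytes. The nonclassical value was the higher one within each of the 7 libraries, although libraries 4, 5 and 6 were low in both types and the 2 ranges overlapped across libraries. The ratio was 2.23 (2.17 to 2.31), and with libraries 1, 2, 3 and 7 alone its log2 value of 0.97 fell just short of 2-fold. Cx3cr1, the fractalkine receptor, was 1.56 times higher (1.51 to 1.62), below the 2-fold limit, and was higher in 6 of 7 libraries.

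**Figure D2:**
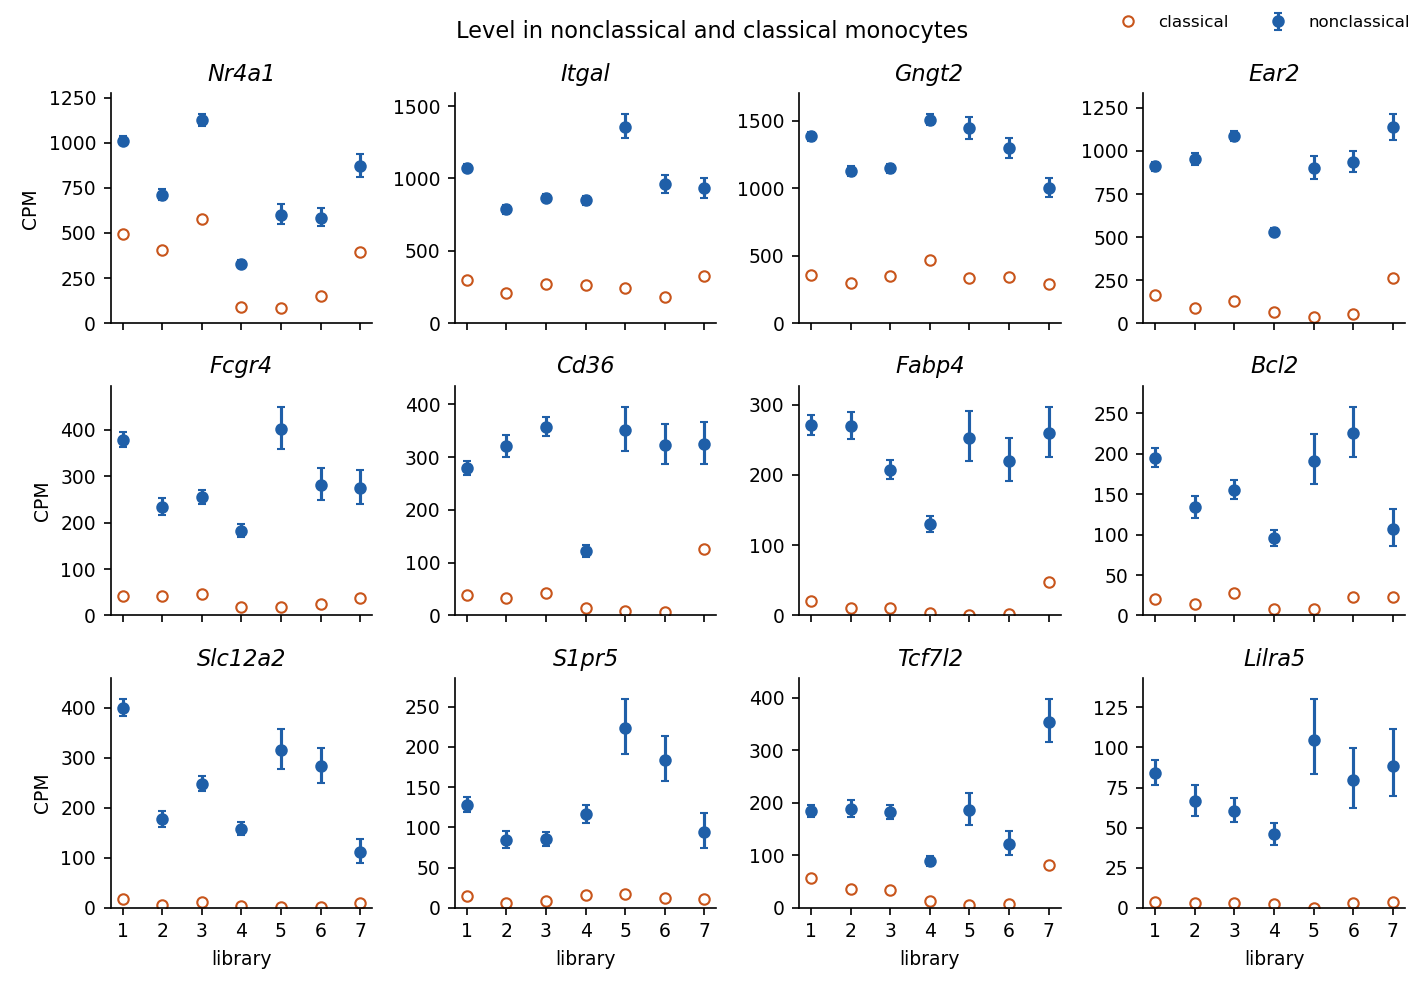
Level in CPM of 12 genes in nonclassical (filled, with 95% Poisson intervals) and classical monocytes (open) of each library. For Fcgr4, Itgal, Gngt2 and Slc12a2 the values of the 2 types do not overlap, while Nr4a1 is lower in both types in libraries 4, 5 and 6.

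The highest ratios that were spread over the libraries began with Tgm3. This transglutaminase gene of epithelia (chr2:130012349-130050399) stood at 30.5, 31.7, 27.5, 15.4, 37.1, 33.3 and 26.7 CPM in libraries 1 to 7 and at no more than 0.758 CPM in the classical monocytes of any library. Its level was low in every library, least in library 4 and highest in library 5, and the 517 UMIs came from 15.3% of the cells. Against 7 UMIs in classical monocytes the ratio was 69.9 (32.0 to 152). C1q macrophages and Cd209a dendritic cells, the other cell types compared, carried 1 Tgm3 UMI each.

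Slc12a2, the sodium-potassium-chloride cotransporter, was the most abundant gene of this kind. It reached 400.5, 177, 248, 159, 316, 284 and 112 CPM in libraries 1 to 7, and 16.8 CPM or less in each library of classical monocytes. Libraries 1 and 5 were high and library 7 low, yet all 7 exceeded the classical cells by a wide margin. The ratio was 29.2 (24.7 to 34.5) against classical monocytes, 43.0 (34.8 to 53.2) against C1q macrophages and 41.6 (30.2 to 57.3) against Cd209a dendritic cells.

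Slc12a2 had a UMI in 57.4% of nonclassical and in 4.66% of classical monocytes, and in 3.81% of B cells. Dnah12, an axonemal dynein heavy chain gene of ciliated cells, had a ratio of 47.4 (25.5 to 87.9). Its values of 86.9 and 73.1 CPM in libraries 5 and 6 stood above the 13.9 to 19.4 CPM of the other 5 libraries. Adrb1, for a beta adrenergic receptor, had a ratio of 33.2 (18.6 to 59.4) and was higher in 7 of 7 libraries.

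The leukocyte receptor gene Lilra5 (24.3, 18.2 to 32.4) and the phosphatase gene Dusp16 (15.6, 13.6 to 17.8) were higher in all 7 libraries as well. Ikzf3, the lymphoid transcription factor Aiolos (21.9, 13.2 to 36.3), and the vascular growth factor gene Vegfc (20.1, 10.7 to 37.9) could be compared in 6 libraries and were higher in all of them. Across the 3 comparison types, the genes whose smallest ratio was highest included Tgm3, Dnah12, Slc12a2, Cited4, Ikzf3, Vegfc and Tgfbr3, the last with 13.2 (9.61 to 18) against classical monocytes. Over C1q macrophages 1039 of 11158 genes (9.31%) were higher and 1229 (11.0%) lower, and over Cd209a dendritic cells 1199 of 10841 (11.1%) were higher and 1047 (9.66%) lower.

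Some of the highest ratios rested on few cells or few UMIs. All 201 UMIs of the chemokine gene Cxcl13 and all 86 of the lectin gene Cd209f came from no more than 23 cells, nearly all in library 2 for the former and entirely there for the latter. The 471 UMIs of Chia1, acidic chitinase, came from 0.310% of the cells, with 35.1 CPM in library 1 and 339 CPM in library 7. Adamdec1 had 87 UMIs, in 2.65% of the cells, against 1 UMI in classical monocytes, so that its ratio of 60.2 had a counting interval of 10 to 362.

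The promoters of 4 of the genes that were higher are shown because they hold a letter match to the site of a factor that the cells carry. RefSeq gave a window of 250 bases before to 50 after the start (GRCm38.p6) for 502 of the higher genes. In them TTGCNNAA, the core read by C/EBP factors, was found on either strand in 12.2% of the promoters of higher genes, in 17.0% of the 223 promoters of lower genes, in 8.53% of those of all genes tested and in 10.8% of all 27025 promoters. AAAGGTCA, the site that NR4A1 binds as a monomer, was present in 1.20% of the promoters of higher genes, in 0.448% of those of lower genes, in 0.862% of those of all genes tested and in 1.46% of all promoters. The octamer ATGCAAAT was present in 1.39%, 2.24%, 1.25% and 1.75% of the same sets. For AAAGGTCA and the octamer the shares rest on 6 and 7 of the 502 promoters of higher genes. Among the 223 promoters of lower genes they rest on 1 and 5. The shares of higher genes were near those of all genes tested, and the counts are too few to read a direction. Capitals mark TTGCNNAA, in either orientation, in the first 3 sequences, and the reverse complement of AAAGGTCA in the last.
Tgm3, chr2:130012090-130012389, plus strand: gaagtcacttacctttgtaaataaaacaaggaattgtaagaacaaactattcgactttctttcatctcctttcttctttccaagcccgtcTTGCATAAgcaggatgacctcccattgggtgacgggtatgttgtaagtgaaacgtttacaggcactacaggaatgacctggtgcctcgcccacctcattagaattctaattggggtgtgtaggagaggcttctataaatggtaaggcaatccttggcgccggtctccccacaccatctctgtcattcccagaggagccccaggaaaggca
Dnah12, chr14:26691304-26691603, plus strand: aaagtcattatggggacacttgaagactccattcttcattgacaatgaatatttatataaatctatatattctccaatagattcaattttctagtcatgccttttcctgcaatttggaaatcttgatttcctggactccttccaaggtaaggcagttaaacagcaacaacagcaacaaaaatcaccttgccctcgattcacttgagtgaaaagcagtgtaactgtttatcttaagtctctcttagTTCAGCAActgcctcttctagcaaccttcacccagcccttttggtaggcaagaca
Ear2, chr14:44102404-44102703, plus strand: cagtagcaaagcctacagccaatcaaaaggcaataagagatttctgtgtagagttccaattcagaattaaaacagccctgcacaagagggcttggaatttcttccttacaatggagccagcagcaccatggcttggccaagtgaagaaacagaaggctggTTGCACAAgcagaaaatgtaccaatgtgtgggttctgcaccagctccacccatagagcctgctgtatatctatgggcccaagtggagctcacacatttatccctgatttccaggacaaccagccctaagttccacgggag
Slc5a11, chr7:123214616-123214915, plus strand: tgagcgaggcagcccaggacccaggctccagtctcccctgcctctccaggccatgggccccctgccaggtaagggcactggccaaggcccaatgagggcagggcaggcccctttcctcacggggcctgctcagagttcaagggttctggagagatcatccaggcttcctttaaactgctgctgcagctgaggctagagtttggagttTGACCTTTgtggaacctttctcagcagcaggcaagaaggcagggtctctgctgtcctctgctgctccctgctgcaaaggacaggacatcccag
The matches describe letters in these windows only, and none of the 3 motifs contains another.

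Survival genes were led by the BCL2 family. Bcl2 (chr1:106538178-106714274), which blocks mitochondrial cell death, stood at 195, 134, 155, 95.8, 192, 226 and 107 CPM in libraries 1 to 7. Classical monocytes carried it at 7.66 to 28.0 CPM, so that the 2 types did not overlap, and library 4 was again the lowest. The ratio was 8.90 (7.88 to 10.1). Of 10 survival genes 4 were higher and 0 lower, beside 5.77% and 2.63% of all genes tested, namely Bcl2 and its relatives Bcl2a1a, Bcl2a1b and Bcl2a1d with ratios of 7.28, 5.87 and 6.33. The 3 Bcl2a1 genes are near-identical copies, so the split of reads among them is uncertain. Mcl1, another member of the family, had a ratio of 1.0.

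Lipid handling genes were higher in many cases. Of 19 such genes 9 were higher and 1 was lower, beside 5.77% and 2.63% of all genes tested, with a median log2 ratio of 0.85 against 0.09. Fabp4, a fatty acid binding protein (chr3:10204088-10208576), stood at 270.4, 269.8, 208, 130.1, 253, 220.3 and 259.8 CPM in libraries 1 to 7, against 47.2 CPM or less in classical monocytes. Library 4 was low and the other 6 were similar. The ratio was 20.3 (17.5 to 23.6).

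Cd36, a scavenger receptor for oxidized lipids (chr5:17781690-17888801), had 279, 320.4, 358, 123, 352, 323 and 325 CPM and a ratio of 8.56 (7.82 to 9.37). The classical cells of library 7 reached 126 CPM, above the nonclassical cells of library 4, and within every library the nonclassical value was the higher one. Pparg, the lipid-sensing receptor, had a ratio of 7.52 (6.26 to 9.03), Pltp, the phospholipid transfer protein, 3.66 and the cholesterol exporter gene Abcg1 3.25. When members with a UMI of Marco, C1qa, Ncr1, Pf4 or Col1a2 were also excluded, 4 of the 19 genes were higher and 3 lower. Classical cells with these UMIs were kept, and Marco, which is on the list, was removed from the members by construction. Part of this shift thus follows from the setting.

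Macrophage transcripts moved with part of that list. Of 6 alveolar macrophage genes 5 were higher, namely Marco, Siglecf, Ear1, Car4 and Krt79. The summed UMIs of Marco lay in few cells, with 80.6% of them in the 23 cells with most, and 41 members had 3 or more Marco UMIs. Marco stood at 24.0, 48.9, 64.1 and 160.2 CPM in libraries 1, 2, 3 and 7 and had 0 UMIs in libraries 4, 5 and 6, which allows up to 0.781, 3.84 and 3.22 CPM there (3 UMIs per library). With the 5 further exclusion genes, which remove Marco by construction, 0 of the 6 were higher. Chil3, the most abundant of the list, stood between 637 and 8854 CPM and had a ratio of 0.96. That ratio joined opposite directions, since Chil3 was higher than in classical monocytes in libraries 1, 2, 3 and 7 and lower in libraries 4, 5 and 6, where it stood at 637, 653 and 911 CPM against 1775, 2697 and 3418 CPM. Its log2 ratio was 0.33 in the former libraries alone and -1.65 in the latter alone.

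Markers of other cell types were also counted. C1q genes summed to at least 10 UMIs in 44 members, neutrophil genes (Ly6g, Cxcr2 and Retnlg) in 63, and platelet genes (Pf4 and Ppbp) to at least 3 UMIs in 264, of which 118, 54 and 67 were in libraries 4, 5 and 6. In thinned cells of these 3 libraries Pf4 had a UMI in 21.01%, 36.6% and 43.6% of the members and in 26.8%, 35.3% and 45.4% of B cells, so that the members did not stand clearly above the level of cells that should lack it. None of the 6 neutrophil, 6 platelet or 5 C1q macrophage genes was 2-fold higher or lower than in classical monocytes by the stratified ratio, although single libraries went past 2-fold in both directions. The summed neutrophil genes stood at 281 CPM against 2342 CPM in classical cells in library 5, but at 1145 against 199 CPM in library 7, 4189 against 1606 CPM in library 3 and 434 against 174 CPM in library 1. In library 2 the platelet genes summed to 135 against 29.7 CPM and the C1q genes to 879 against 354 CPM. Globins made up 10.4%, 4.43% and 3.71% of the members' UMIs in libraries 4, 5 and 6. With the globins left out of the totals 654 genes were higher and 282 lower, and 75 of 75 called list genes kept their call. With the 5 more excluding genes 58 of 75 did so. Without the cells that carried 3 or more UMIs of macrophage, neutrophil or dendritic cell markers, 70 of 72 did so, and the same 17 of the 25 nonclassical programme genes were higher. The part of these transcripts in the levels above was not tested in other ways.

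**Figure D3:**
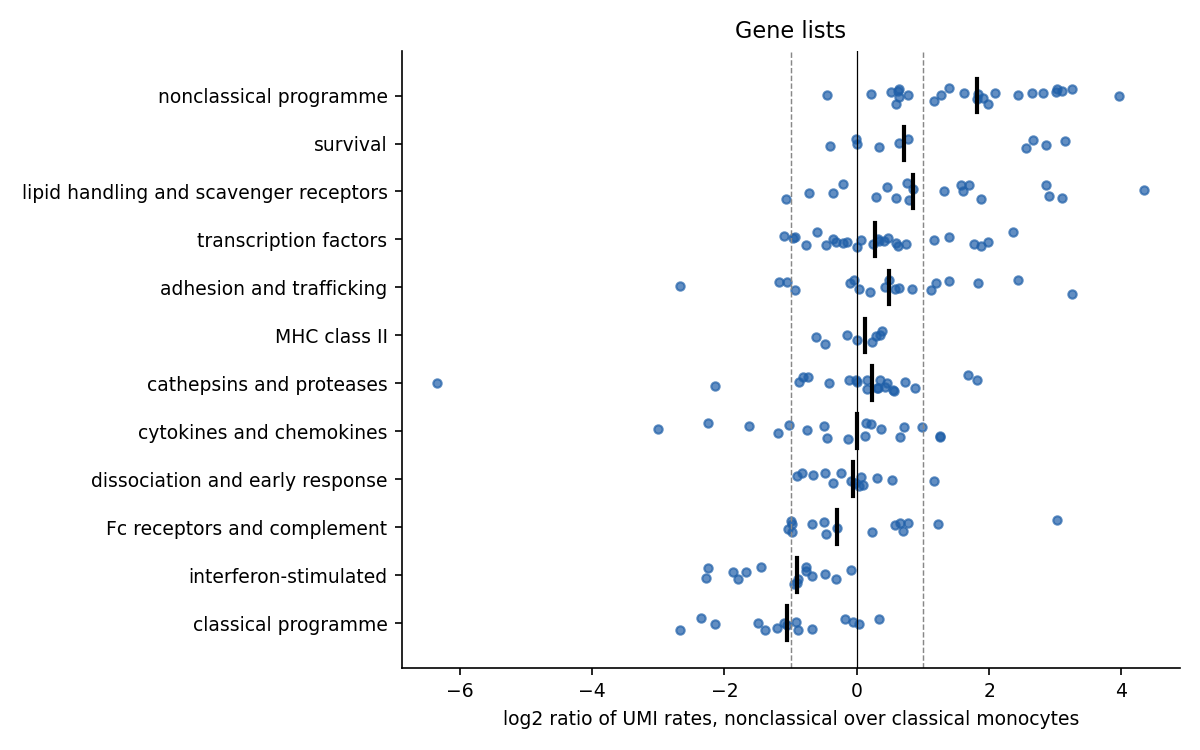
Log2 ratio of UMI rates, nonclassical over classical monocytes, for the genes of 12 lists (points, with vertical jitter only for legibility), their median (black bar) and the 2-fold limits (dashed). The nonclassical programme has a median of 1.82, the interferon-stimulated genes one of -0.90 and the classical programme one of -1.05.

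Of 15 classical monocyte genes outside the rules 0 were higher, 8 were lower and 7 lay between the limits, with a median log2 ratio of -1.05. Fn1, for fibronectin, stood at 393, 436, 311, 305, 201, 204 and 237 CPM in libraries 1 to 7 and at 1291 to 2278 CPM in classical monocytes. The 2 types were far apart in all 7 libraries, and the ratio was 0.196 (0.191 to 0.202). Cd14, the endotoxin co-receptor, had a ratio of 0.469 (0.450 to 0.489), but with UMIs pooled over libraries its log2 value was -0.30 and no longer past the limit. Lyz2, lysozyme, remained the most abundant of the list at 16565 CPM, with a ratio of 0.53. Ccr2, Ly6c2 and F13a1 chose the classical cells and were not compared.

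The lowest ratios over all genes began with Elane, Ctsg and Mpo, whose products fill neutrophil granules. Prtn3, proteinase 3, had 92 UMIs against 1387 in classical monocytes, a ratio of 0.084 (0.0678 to 0.104), and was lower in 7 of 7 libraries. Mpo, myeloperoxidase, had 6 UMIs against 219, but 80.3 CPM of the classical level was in library 3 and only that library could be compared. Ccl24, an eosinophil attractant, was likewise low through a single library, with 934 CPM in the classical cells of library 7.

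Among 15 interferon-stimulated genes 0 were higher and 6 lower, namely Isg15, Cxcl10, Usp18, Ifit1, Ifit2 and Ifit3, with a median log2 ratio of -0.90. Ifit3, an antiviral effector, stood at 8.87, 20, 12.3, 16.7, 24.3, 16.1 and 3.64 CPM in libraries 1 to 7, and at 14.8, 115, 70.5, 34.5, 81.4, 72.3 and 21 CPM in classical monocytes. It was the lower in each of the 7 libraries, and most so in libraries 2, 3 and 7. The ratio was 0.274 (0.239 to 0.314). In libraries 1, 2, 3 and 7 alone 11 of the 15 were lower, and in libraries 4, 5 and 6 alone 5.

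Transcription factors separated into those above and those near the classical level. Of 26 factors 6 were higher (Bhlhe40, Bhlhe41, Pou2f2, Nr4a1, Hes1 and Tcf7l2) and 1, Irf4, was lower. Bhlhe41 fell to a log2 ratio of 0.68 with the 5 more excluding genes, Irf4 was at -0.77 there and at -0.81 in libraries 1, 2, 3 and 7 alone, and Nr4a1 missed 2-fold in the latter, while the other 4 stayed past the limit in every alternative run. Tcf7l2, a Wnt pathway effector, stood at 185, 189, 182, 88.5, 187, 123 and 354 CPM with a ratio of 5.15 (4.69 to 5.65). Cebpb, the C/EBP factor required for these cells, was the most abundant factor at 2805 CPM and had a ratio of 1.51, below the limit. Klf2 had a ratio of 1.39.

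Adhesion genes showed both directions, with 6 of 19 higher and 3 lower, beside 5.77% and 2.63% of all genes tested. Ccr1, lower here and among the classical genes, missed the limit in several settings. Its log2 ratio was -0.76 in libraries 1, 2, 3 and 7 alone and -0.77 with pooled UMIs. S1pr5, a sphingosine phosphate receptor that lets cells leave the bone marrow, stood at 128, 84.8, 85.6, 117, 224, 184 and 94.7 CPM in libraries 1 to 7. Classical monocytes held 17.1 CPM or less in any library, and the ratio was 9.53 (8.33 to 10.9). C1q macrophages and Cd209a dendritic cells held 0.533 and 0.417 CPM of it. Libraries 5 and 6 were the high ones for S1pr5, as they were for Dnah12.

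Fc receptor and complement genes were mostly near or below the classical level apart from Fcgr4 and the C5a receptor gene C5ar1, whose ratio was 2.34 (2.14 to 2.55). Fcgr1, the high-affinity IgG receptor, was lower at 0.48 (0.45 to 0.52), close to the limit. It missed the limit in libraries 4, 5 and 6 alone (log2 ratio -0.87) and with no excluding genes (-0.96). It also just missed it without library 2 (-0.983), without library 3 (-0.996) and with the study's filter on UMIs and genes (-0.9997). Of the 15 genes of this list 2 were higher and 1 lower, beside 5.77% and 2.63% of all genes tested. None of 8 antigen presentation genes passed 2-fold in either direction. Among thinned cells the sum of H2-Aa, H2-Ab1, H2-Eb1 and Cd74 had a median of 1 UMI, a 90th percentile of 17 and a maximum of 119, and 896 of 2233 cells were at 0. The class II level was thus uneven among the cells.

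Most proteases did not pass 2-fold, with 2 of 22 higher (Ctsk and Mmp12) and 2 lower (Elane and Mmp8), beside 5.77% and 2.63% of all genes tested. Ctsl, the cathepsin that the study follows in eosinophils (chr13:64359337-64370890), stood at 106, 140.2, 76.8, 36.4, 40.9, 29.0 and 144 CPM in libraries 1 to 7. Libraries 4, 5 and 6 were low and library 7 the highest. The ratio over classical monocytes was 0.92 (0.85 to 0.99), and C1q macrophages held 877 CPM, against which the ratio was 0.15 (0.14 to 0.16). Mmp12, macrophage elastase, had 86.6% of its UMIs in 23 cells. Both higher calls were lost with the 5 more excluding genes, at log2 ratios of 0.32 for Ctsk and 0.02 for Mmp12. These genes remove members with Marco or C1qa but were not applied to classical cells. Mmp12 also fell to 0.77 without library 1.

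Levels of the early response genes followed the 2 kinds of library in both monocyte types. The summed level of 14 such genes, which rise within minutes of cell handling or stimulation, was 7271, 6765, 7810 and 7775 CPM in nonclassical monocytes of libraries 1, 2, 3 and 7 and 1286, 2176 and 1727 CPM in libraries 4, 5 and 6. Classical monocytes showed 7552, 8077, 7587 and 9805 CPM against 1181, 1925 and 1559 CPM. The 2 kinds of library did not overlap, in either cell type. Between the cell types 1 of the 14 genes, Nr4a1, was higher and 0 were lower, which is near the 5.77% and 2.63% of all genes tested. In libraries 1, 2, 3 and 7 alone Nr4a1 missed 2-fold, with a log2 ratio of 0.97.

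Il1b, the inflammatory cytokine, stood at 768, 921, 1308, 127, 176, 91.3 and 490.5 CPM in libraries 1 to 7 of nonclassical monocytes and was higher than in classical monocytes in 7 of 7 libraries, with a ratio of 1.63 (1.58 to 1.68). Cxcl2, a neutrophil attractant, was measured at 351, 398, 609 and 276 CPM in libraries 1, 2, 3 and 7 and had 0 UMIs in libraries 4, 5 and 6, with the same limits. Of 18 cytokine and chemokine genes 2 were higher, Tnf and Il1a (log2 ratio 0.62 without cells that carried other markers), and 5 lower, beside 5.77% and 2.63% of all genes tested. Ccl2, the ligand of CCR2, was among the lower ones at 0.124 (0.104 to 0.148). The libraries with low Il1b, Cxcl2 and early response levels were those with globins and without lung epithelial transcripts, and what set the difference was not tested.

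**Figure D4:**
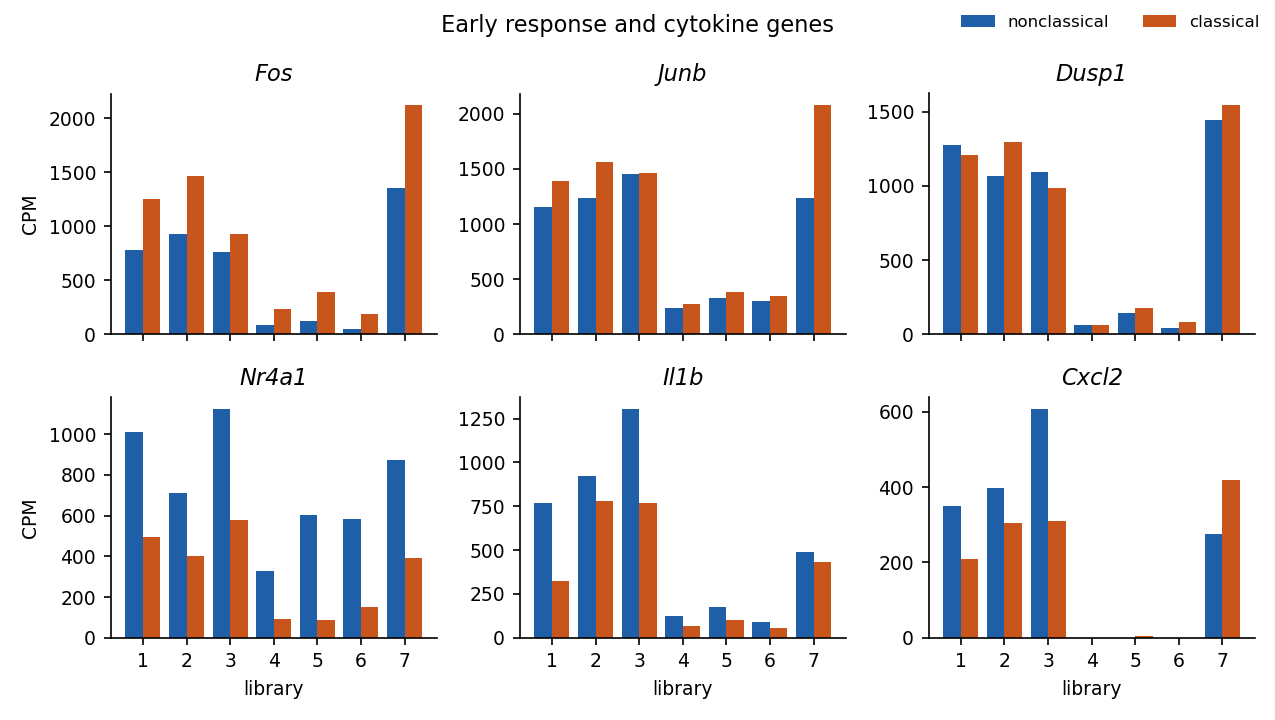
Level in CPM of 4 early response genes and of Il1b and Cxcl2 in nonclassical (blue) and classical monocytes (orange) of the 7 libraries. Libraries 4, 5 and 6 are low for all 6 genes in both types, and Nr4a1 and Il1b are higher in nonclassical cells in each library.

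Nonclassical monocytes differed among themselves in the classical genes. Ly6c2, the gene of the Ly6C antigen, had a UMI in 30.9% of them (16.1% after thinning), and in 5.81% of B cells (2.30% after thinning). The thinned share ran from 25.5% in library 4 to 2.82% in library 7, where it did not exceed the 3.23% of B cells. Both Ly6c2 and Ccr2 were detected in 555 cells (24.5%). After thinning 1873 cells had 0 Ly6c2 UMIs, 176 had 1 and 184 had 2 or more. These 3 sets are ranges of a single gene and not cell types, and their median depths before thinning were 6971, 9346 and 9699 UMIs.

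Across the 3 sets Ccr2 stood at 216, 708 and 884 CPM, Fn1 at 157, 515 and 641 CPM and Lyz2 at 14140.2, 21292 and 26464 CPM. Fcgr4 went the other way with 444, 174 and 68.8 CPM, as did Itgal with 1155, 837 and 634 CPM and Cd36 with 389, 144 and 36.2 CPM. Nr4a1 was at 1019, 833 and 565 CPM. The intervals of the first and last sets did not overlap for any of these genes. Genes of the rule fell in level along the sets too, with Cd300e at 251, 45.5 and 18.1 CPM and Treml4 at 454, 265 and 167 CPM, and Ly6c2 was highest in cells just inside the threshold, so the sets with Ly6c2 lay towards the edge of the selection. In libraries 1, 2, 3 and 4, which had 84, 50, 99 and 96 cells with a Ly6c2 UMI, Fcgr4, Ear2, Cd36, Nr4a1 and Itgal were lower and Ccr2, Lyz2 and Fn1 higher in those cells in each library. Libraries 5, 6 and 7 had 16, 13 and 2 such cells, too few to read a direction.

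**Figure D5:**
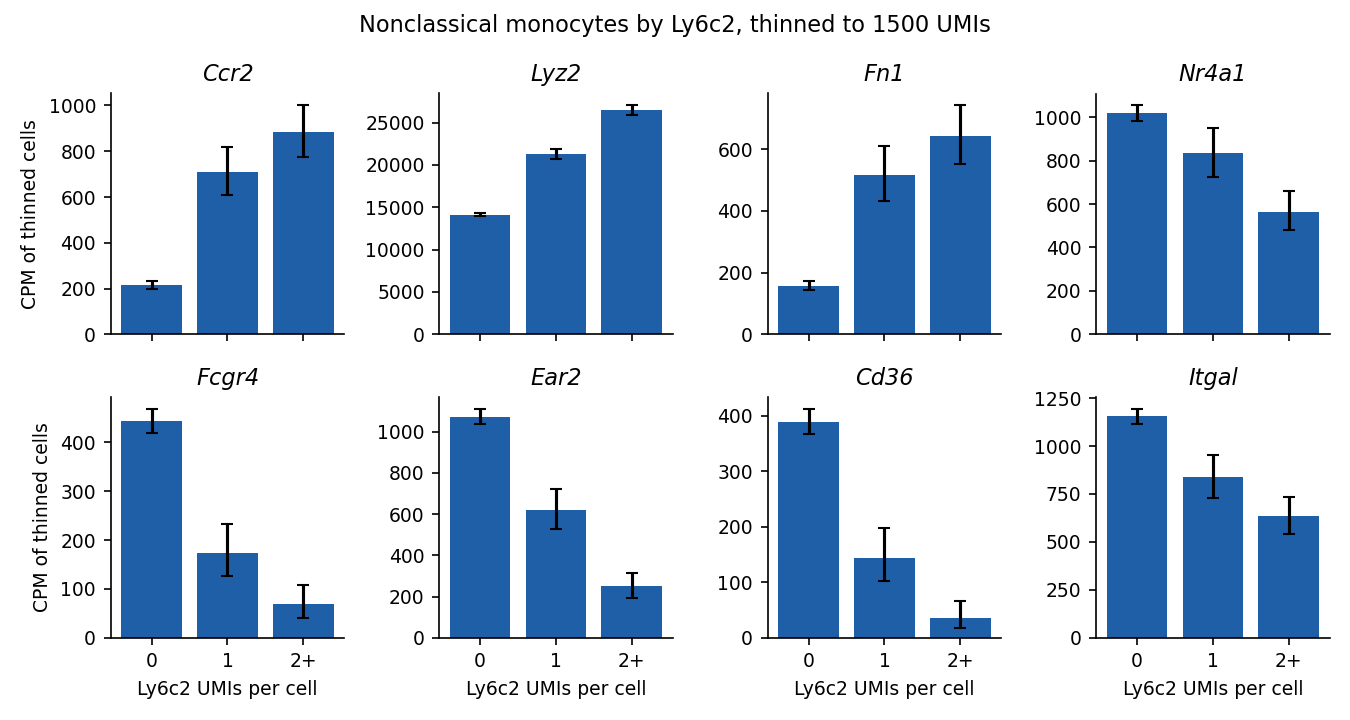
Level in CPM of 8 genes in nonclassical monocytes thinned to 1500 UMIs, by the number of Ly6c2 UMIs in the thinned cell (0, 1, or 2 and more), with 95% Poisson intervals. Ccr2, Lyz2 and Fn1 are higher, and Nr4a1, Fcgr4, Ear2, Cd36 and Itgal lower, in cells with Ly6c2 over all libraries together.

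Library 7, with 72 members, stood out for single cells. Scgb1a1, the secretory protein of club cells, reached 25718 CPM there against 914 CPM or less in the other libraries, and 80.8% of its UMIs lay in 23 cells. Retnla, a gene of alternatively activated macrophages, reached 1698 CPM there and 204 CPM in library 1, with 94.5% of its UMIs in 23 cells. Cycling cells were rare, with 3 or more UMIs of Mki67 and Top2a in 34 of 2261 members, and 0 of 10 cell cycle genes differed by 2-fold from classical monocytes.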

How the data were processed

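The authors deposited 1 matrix of UMI counts (31053 genes, 7 libraries numbered in the barcodes), made with Cell Ranger, version 3.1.0 per its header, and mm10 per the submitters' processing notes. The counts are raw, and how reads were down-sampled can affect depth. The labels name the v3 kit and the study's supplement another version. Doublets were not called: they were limited by the excluding genes and counted by markers. Members, lists and comparison rules were chosen with earlier results of these data known.

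Ratios are Mantel-Haenszel ratios of UMI rates with library as stratum, over genes with at least 50 UMIs in both types together, with rule and mt- genes left out. The called fold was 2, and a count of 0 was set to a floor of 3 UMIs over the group. Intervals are 95% (exact Poisson, exact binomial, Greenland-Robins for ratios). Library directions were read where both types had at least 30 cells and 10 UMIs together. Thinning was to 1500 UMIs per cell without replacement. Classical monocytes needed Ly6c2 and at least 2 of Ccr2, F13a1 and Vcan. C1q macrophages needed all of C1qa, C1qb and C1qc with at least 10 UMIs and no Marco. Cd209a dendritic cells needed at least 2 of Cd209a, Clec10a and Flt3. Named genes were the 20 highest and 15 lowest ratios, the 10 highest smallest ratios over 3 types, the 10 most abundant, the 10 most uneven over libraries, and list genes that were abundant or past 2-fold. On simulated counts for 11132 genes of the comparison with classical monocytes, 4-fold changes were called in 100% (up) and 98.0% (down) of the genes, and 0.256% of unchanged genes were called. The simulation drew Poisson counts per library and held no spread between cells. It therefore does not give the share of calls that arise from UMIs gathered in few cells, doublets or free RNA. Analyses used Python 3.11.15, numpy 2.4.6, scipy 1.17.1 and pandas 2.3.3. Gene positions are from GENCODE M21, in which 30934 of 31053 identifiers were found. Some genes that met the rule for named genes are not reported here.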

Additional observations from a re-analysis of the deposited data

How the results depend on the processing

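The number of nonclassical monocytes was 1257 when every barcode was thinned to 1500 UMIs before the rules, 587 in libraries 4, 5 and 6 alone, and between 1495 and 2189 when 1 library was left out. Leaving out 1 library gave 532 to 680 genes higher and 263 to 323 lower. The counts of genes higher and lower than in classical monocytes were 163 and 41 at 4-fold, 1215 and 558 with at least 10 UMIs per gene, and 357 and 183 with at least 200. They were 1389 and 191 with no excluding genes, and 403 and 609 with 5 more of them (Marco, C1qa, Ncr1, Pf4, Col1a2). With at least 5 UMIs and 3 of 4 genes in the rule, 512 genes were higher and 508 lower, and in libraries 4, 5 and 6 alone 363 were higher and 374 lower, so that the excess of higher genes was lost there and turned with the 5 more excluding genes. Classical cells exclude members, so a stricter rule moves cells into the comparison group. The excluding genes were changed for members only, so classical cells with Marco, C1qa, Ncr1, Pf4 or Col1a2 were kept. Pooled UMI sums gave 919 and 300. The settings on libraries 1, 2, 3 and 7, on libraries 4, 5 and 6, on globins and on cells with other markers were chosen after seeing the data.

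Among list genes past 2-fold, log2 ratios changed sign for Marco (-5.40), Krt79 (-0.21), Car4 (-0.047), Scgb1a1 (-1.67) and Dcn (-1.09) with the 5 more excluding genes, for Scgb1a1 (-1.43) under the stricter rule, for Nkg7 (0.0099) with no excluding genes and for Cd209a (0.43) against stricter classical monocytes. Marco was itself 1 of the excluding genes, so its value rests on the floor of 3 UMIs and is no measured change. For the other genes the cause was not tested. With libraries 1, 2, 3 and 7 alone 70 of 73 called list genes stayed past 2-fold in the same direction, and with libraries 4, 5 and 6 alone 54 of 60.

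No paired analysis was possible because the replicate numbers in the labels belong to samples that no column of the matrix carries. This concerns the labelled replicates, since the 2 monocyte types were compared within each library by the stratified ratio. The median depth of 7463 UMIs per member limits genes near the level of 1 UMI per cell, and the 72 to 110 members of libraries 5, 6 and 7 limit values there.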
